A study of Mus musculus with 6 samples.

Results

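The genes for tumour necrosis factor (Tnf), its 2 receptors and 7 genes of NF-kB feedback were followed in fibrotic livers of the BALB/c mouse strain, with scarring induced by carbon tetrachloride (CCl4). They were chosen by symbol: Tnf, Tnfrsf1a, Tnfrsf1b, Tnfaip3, Nfkbia, Nfkbiz, Bcl3, Relb, Nfkb1 and Nfkb2, which are 10 of the 41388 Ensembl gene identifiers in the count table, each matched by 1 identifier. The treated group received AL/NP, nanoparticles that carry the bisphosphonate alendronate, at 4 mg/kg alendronate, 2 times per week over the last 2 weeks of a 5-week course of CCl4. The control group had the same 5 weeks of CCl4 and is titled untreated, although its labels repeat the treatment text. Each group had 3 libraries of polyadenylated RNA from whole liver. Strain and CCl4 were common to both groups. The labels give no age, do not say whether controls were injected, and list neither a healthy liver nor an empty particle among these samples, so drug, carrier and injection cannot be told apart.

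TNF is a cytokine made largely by macrophages, and in the liver by resident Kupffer cells and by monocytes that enter during injury. Binding to its receptors activates a kinase complex that marks the inhibitor IkB-alpha for destruction, which frees NF-kB dimers to enter the nucleus. NF-kB then switches on genes of inflammation together with its own brakes and subunits, so the transcripts of Nfkbia, Tnfaip3, Nfkb1, Nfkb2 and Relb are themselves known as targets of the pathway. A slower branch runs through the kinase NIK and the dimer of RelB with the processed Nfkb2 product.

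The libraries held between 30554483 and 39838428 counts. Control replicate 3 stood apart from the rest, with the lowest scaling factor (TMM, a correction for differences in RNA makeup), 0.809 against 0.937 to 1.13 in the other 5 libraries, and the highest share of mitochondrially encoded counts, 26.7% against 11.96% to 19.8%. Values are given in CPM on the TMM scale, that is, counts as a share of the scaled library total, in which 3 counts corresponded to between 0.0826 and 0.104 CPM. The labels number the replicates without stating that each is a separate animal. The p-values set the difference between groups against the spread between these samples, which may not be the spread between animals. The albumin gene Alb, which defines hepatocytes, measured 40638, 36814 and 43309 CPM in AL/NP replicates 1 to 3 and 44091, 44340 and 53586 CPM in control replicates 1 to 3.

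All 10 genes had a higher fitted level with AL/NP than in controls, with a median log2 fold change of 0.57 against -2.49e-04 over the 15939 genes tested. The 10 were chosen with earlier results of these data known, so their contrast with all genes is no independent evidence. In bulk tissue, more cells of a type and more RNA per cell cannot be told apart. None passed the test across all genes (edgeR quasi-likelihood test, Benjamini-Hochberg adjusted p), in which 0.0816% of genes were called, 0.0627% higher and 0.0188% lower, 13 genes in all. The smallest adjusted p among the 10 was 0.103, that of Relb. At an unadjusted p under 0.05, 5 of the 10 were higher and 0 lower, where 9.37% of all tested genes were higher and 10.3% lower, 19.6% in either direction. DESeq2, run beside it, called 2 of the 10 as higher, Bcl3 and Relb, against 2.59% of genes higher and 2.48% lower. The groups did not overlap in 5 of the 10 (Tnfaip3, Nfkbia, Bcl3, Relb and Nfkb1), all higher with AL/NP, where 14.5% of tested genes showed that separation upward and 15% downward. Without AL/NP replicate 1 that count was 8, with Tnf, Tnfrsf1a and Nfkbiz added, and with library totals as the only scaling it was 3 (Nfkbia, Relb and Nfkb1).

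**Figure D1:**
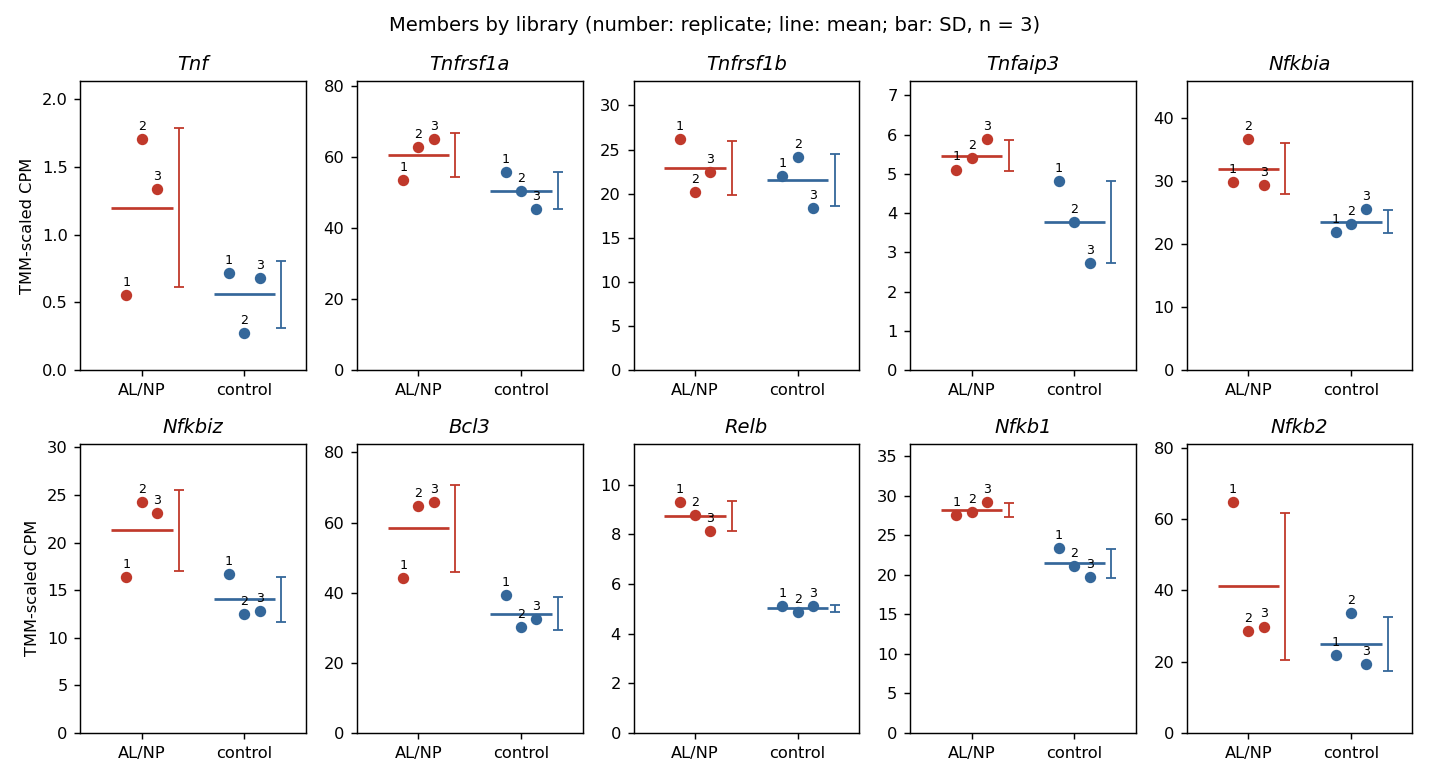
TMM-scaled CPM (vertical axes, from 0, each gene on its own scale) of the 10 genes in 3 AL/NP and 3 control libraries; points carry the replicate number, lines are means and bars SD. Relb lies between 8.12 and 9.31 CPM in AL/NP livers and between 4.86 and 5.11 CPM in controls, whereas for Nfkb2 a single AL/NP library at 64.9 CPM stands above the other 5.

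The ligand came from few reads. Tnf (chromosome 17, 35199381 to 35202007, minus strand, protein coding; all gene positions here are GRCm38) had 16, 62 and 46 counts in AL/NP replicates 1 to 3 and 25, 10 and 22 counts in control replicates 1 to 3. That corresponded to 0.556, 1.71 and 1.33 CPM with AL/NP and 0.718, 0.276 and 0.683 CPM in controls. AL/NP replicates 2 and 3 lay above every control, while AL/NP replicate 1 lay below control replicates 1 and 3, so the groups overlapped. The fitted log2 fold change was 1.11 (SE 0.507, adjusted p = 0.265, edgeR). This was the largest fold among the 10 genes and also the one with the largest error, and it ranged from 0.77 to 1.44 as each library was left out. Lymphotoxin alpha (Lta), the neighbouring relative of Tnf that uses the same receptors, was too low to test, with 12 counts in all AL/NP livers together and 24 in all controls together. Lymphotoxin beta (Ltb), which signals through another receptor of the family, had 4.48, 3.36 and 3.92 CPM with AL/NP against 2.56, 2.90 and 1.83 CPM in controls, without overlap (log2 fold change 0.69, SE 0.258, adjusted p = 0.208, edgeR).

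The receptors had the smallest fold changes of the 10. Tnfrsf1a (chromosome 6, 125349362 to 125362484, plus strand), the death-domain receptor found on most cells, measured 53.5, 62.97 and 65.2 CPM with AL/NP and 55.7, 50.6 and 45.5 CPM in controls, with a log2 fold change of 0.26 (SE 0.1505, adjusted p = 0.353, edgeR). Tnfrsf1b (chromosome 4, 145213463 to 145246870, minus strand), the receptor without a death domain that is prominent on leukocytes and endothelium, measured 26.2, 20.1 and 22.5 CPM with AL/NP and 21.998, 24.2 and 18.4 CPM in controls. Both receptors overlapped between the groups. The log2 fold change of Tnfrsf1b was 0.09 (SE 0.164, adjusted p = 0.778, edgeR), and its sign turned, to -0.01, when either AL/NP replicate 1 or control replicate 3 was left out. Within a library, which leaves out any scaling, Tnfrsf1b gave 0.4896, 0.320 and 0.345 counts per count of Tnfrsf1a with AL/NP and 0.395, 0.478 and 0.404 in controls. The mean log2 ratio differed by -0.17 (exact two-sided permutation test, p = 0.5, adjusted p = 0.8 over 4 ratios; the smallest p that 3 against 3 allows is 0.1).

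Among the inhibitors, Nfkbia (chromosome 12, 55489410 to 55492647, minus strand) encodes IkB-alpha, which holds NF-kB in the cytoplasm and is remade when NF-kB is active. It measured 29.9, 36.7 and 29.4 CPM with AL/NP and 21.9, 23.2 and 25.5 CPM in controls. Every AL/NP library lay above every control, with means of 31.99 ± 4.10 and 23.5 ± 1.83 CPM (SD, n = 3 each). The log2 fold change was 0.44 (SE 0.148, adjusted p = 0.181, edgeR), which is 1.36-fold. Tnfaip3 (chromosome 10, 19000910 to 19015657, minus strand) encodes A20, a ubiquitin-editing enzyme that shuts off signalling downstream of the TNF receptor. It measured 5.11, 5.39 and 5.89 CPM with AL/NP and 4.82, 3.78 and 2.73 CPM in controls, a log2 fold change of 0.53 (SE 0.246, adjusted p = 0.271, edgeR). The gap between the lowest AL/NP library and the highest control was narrow, and the log2 fold change was 0.34 without control replicate 3.

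The feedback loop runs through kappa-B elements, the DNA sites that NF-kB dimers bind, so promoters of the 10 genes were read. RefSeq windows of 300 bases (GRCm38.p6, 250 bases before to 50 after a start site) were at hand for 7 of the 10 genes and were searched on both strands for the kappa-B consensus. The consensus matched in 4 of these 7 (Tnfaip3, Nfkbia, Bcl3 and Nfkb2), where 9.55% of all 27025 genes with a window had a match in at least 1 window and 8.46% of all 32851 windows held one. The genes were chosen as feedback genes of NF-kB, several of them known targets, so this contrast is no independent evidence. The 7 genes also had 10 windows between them, and a gene with more windows has more places for a match. Tnf, Tnfrsf1a and Tnfrsf1b had no match to this consensus in their windows, which says only that these letters are absent there. Nfkbiz, Relb and Nfkb1 had no window and were not searched. Any link between a match and a fold change was not tested. The stretches below are shown because they hold the matched letters, in capitals, of the 4 genes with a match. They are written 5′ to 3′ on the strand of the gene. That of Nfkbia is chr12:55492648-55492897, that of Tnfaip3 is chr10:19015411-19015547, and both end at the base before the start site.
Nfkbia, minus strand: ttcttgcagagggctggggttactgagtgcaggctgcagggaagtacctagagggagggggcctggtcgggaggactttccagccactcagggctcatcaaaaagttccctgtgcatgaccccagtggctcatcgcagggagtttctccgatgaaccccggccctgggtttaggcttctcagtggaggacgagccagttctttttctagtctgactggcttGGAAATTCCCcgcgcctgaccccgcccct
Tnfaip3, minus strand: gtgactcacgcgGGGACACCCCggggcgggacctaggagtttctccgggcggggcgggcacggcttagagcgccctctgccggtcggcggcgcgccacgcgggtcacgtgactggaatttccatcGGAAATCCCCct
The matches began 29 bases before the start site in Nfkbia, and 125 and 12 bases before it in Tnfaip3. Matches of Nfkb2 and Bcl3 fell inside annotated exons of 1 or more transcripts and are given with 10 bases on each side. Those of Nfkb2 are chr19:46304688-46304717, chr19:46304716-46304745 and chr19:46305695-46305724, and that of Bcl3 is chr7:19822734-19822763.
Nfkb2, plus strand, 39 bases before the first start: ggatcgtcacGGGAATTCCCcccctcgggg
Nfkb2, plus strand, 11 bases before the first start: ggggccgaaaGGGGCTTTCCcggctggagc
Nfkb2, plus strand, 225 bases before a later start: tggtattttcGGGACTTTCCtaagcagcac
Bcl3, minus strand: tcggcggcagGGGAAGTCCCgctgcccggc
Nfkb2 had 5 matches over 3 windows; of those not printed, 1 overlaps the printed stretch at 39 bases and the other lies 236 bases before the second start site. Counting a start site as base 1, the match of Bcl3 began at base 3, after its start. The Nfkb2 match printed at 225 bases before a later start also began at base 11 from the second start site. A match is a description of letters and no measurement of binding.

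The nuclear relatives of IkB, which modify transcription inside the nucleus instead of holding NF-kB outside it, had fitted folds of 1.71 and 1.52, against 1.36 for Nfkbia. Bcl3 (chromosome 7, 19808462 to 19822770, minus strand), a partner of NF-kB homodimers that is also induced in hepatocytes during the acute phase response, measured 44.1, 64.8 and 65.98 CPM with AL/NP and 39.3, 30.3 and 32.6 CPM in controls. The groups did not overlap, and means were 58.3 ± 12.3 and 34.05 ± 4.70 CPM (SD, n = 3 each). Its log2 fold change was 0.78 (SE 0.193), with an adjusted p of 0.128 from edgeR and 0.0174 from DESeq2, and of 0.00926 to 0.291 over all alternatives. Nfkbiz (chromosome 16, 55811375 to 55838899, minus strand), which encodes the IkB-zeta needed for a later wave of inflammatory genes, measured 16.4, 24.3 and 23.1 CPM with AL/NP and 16.7, 12.5 and 12.8 CPM in controls. AL/NP replicate 1 lay just under control replicate 1, and the other AL/NP libraries lay above all controls. The log2 fold change of Nfkbiz was 0.60 (SE 0.195, adjusted p = 0.176, edgeR), and it was 0.76 without AL/NP replicate 1.

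Of the subunits, Relb (chromosome 7, 19606217 to 19629438, minus strand), the partner of the processed Nfkb2 product in the slower branch, had the lowest p of the 10 genes. It had 268, 319 and 280 counts with AL/NP and 178, 176 and 164 counts in controls, or 9.31, 8.78 and 8.12 CPM against 5.11, 4.86 and 5.09 CPM. The means were 8.74 ± 0.596 and 5.02 ± 0.1401 CPM (SD, n = 3 each). The log2 fold change was 0.80 (SE 0.166), or 1.74-fold, with an adjusted p of 0.103 from edgeR and 0.00475 from DESeq2, and of 0.00475 to 0.263 over all alternatives. Leaving out each library in turn gave log2 fold changes of Relb from 0.75 to 0.85.

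Nfkb1 (chromosome 3, 135584655 to 135691547, minus strand), which encodes the precursor of a subunit of the classical dimer, measured 27.6, 27.9 and 29.2 CPM with AL/NP and 23.4, 21.1 and 19.7 CPM in controls. The groups lay apart with a smaller fold than that of Relb (log2 fold change 0.40, SE 0.133, adjusted p = 0.1798, edgeR). Nfkb2 (chromosome 19, 46304320 to 46312385, plus strand), the precursor that NIK signalling processes, measured 64.9, 28.5 and 29.8 CPM with AL/NP and 21.97, 33.5 and 19.4 CPM in controls. Control replicate 2 lay above AL/NP replicates 2 and 3, so the groups overlapped. The log2 fold change of Nfkb2 was 0.72 (SE 0.346, adjusted p = 0.285, edgeR), and it was 0.22 without AL/NP replicate 1. In that library 4 bile duct markers (Krt19, Krt7, Epcam and Sox9) summed to 41.9 CPM, where they summed to 15.4 to 19.3 CPM in the other 5, while the fifth and most abundant one, Spp1, was higher in AL/NP replicate 2. Their part in the level of Nfkb2 was not tested. The T cell gene Cd3e was also highest there, at 16.6 CPM against 0.497 to 2.67 CPM, but the other 7 T and NK cell markers together gave 2.68 CPM in that library, within the 1.41 to 2.92 CPM of the other 5. Exons of Nfkb2 overlap those of Psd on the opposite strand by 299 bases, a gene with 0.918 counts per 100 of Nfkb2. They also overlap those of AC114539.1 on that strand, by 531 bases. AC114539.1 is absent from the count table, so its reads cannot be judged. Exons of Bcl3 overlap those of Gm16175, with 0.0212 counts per 100 of Bcl3.

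**Figure D2:**
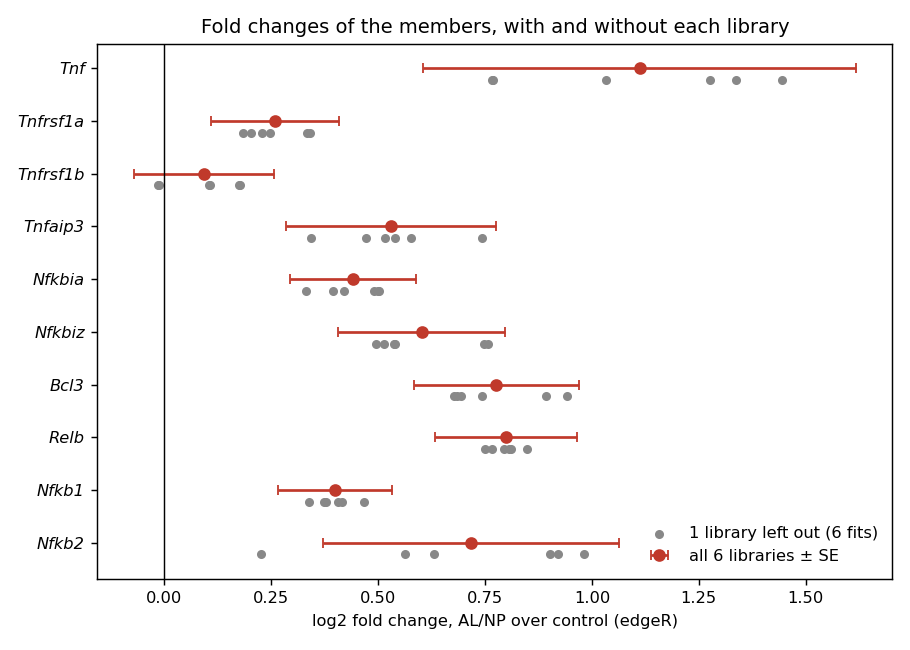
Log2 fold changes of AL/NP over control (horizontal axis) from edgeR for each of the 10 genes; red points with bars are estimates from all 6 libraries with their SE, and grey points are estimates with 1 library left out. The grey points of Relb stay between 0.75 and 0.85, those of Nfkb2 reach down to 0.22, and those of Tnfrsf1b fall on both sides of 0.

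The count ratios between members, free of scaling between libraries, did not separate the groups. Nfkb2 gave 2.35, 1.02 and 1.02 counts per count of Nfkb1 with AL/NP and 0.938, 1.59 and 0.986 in controls, so the high values came from AL/NP replicate 1 and control replicate 2. Nfkbia gave 1.08, 1.32 and 1.005 counts per count of Nfkb1 with AL/NP and 0.936, 1.097 and 1.297 in controls. Tnfaip3 gave 0.171, 0.147 and 0.2004 counts per count of Nfkbia with AL/NP and 0.2199, 0.163 and 0.107 in controls. The differences in mean log2 ratio were 0.25, 0.03 and 0.13 for these 3 ratios, with exact two-sided permutation p of 0.5, 0.8 and 0.8, and adjusted p of 0.8 for each. Each difference took the opposite sign when some library was left out.

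The 10 genes did not follow one order across the AL/NP livers. AL/NP replicate 1 was the lowest of the AL/NP libraries for 6 of the 10, among them Tnf, Nfkbiz and Bcl3, and the highest for 3, Tnfrsf1b, Relb and Nfkb2. Control replicate 1 was the highest control for 7 of the 10. None of the 10 had its highest value of all 6 libraries in a control, or its lowest in an AL/NP liver. The share of all tested genes with that pattern was not counted, so this is a description only. The mean level over the 10 genes, as log2 CPM minus the control mean, was 0.46, 0.62 and 0.58 in AL/NP replicates 1 to 3 and 0.14, -0.05 and -0.09 in control replicates 1 to 3.

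Levels of different genes were compared per kilobase of annotated exon. That length joins the exons of all annotated transcripts of a gene, 12061 bases for Nfkb1 and 4584 for Nfkb2. The lengths of the transcripts expressed in these livers were not determined. A gene with many unused exon bases reads too low, so the order is approximate. The highest were Bcl3 at 23.6 ± 4.96 CPM per kb with AL/NP and 13.8 ± 1.90 in controls, Tnfrsf1a at 23.4 ± 2.39 and 19.5 ± 1.98, and Nfkbia at 19.9 ± 2.55 and 14.6 ± 1.13 (SD, n = 3 each). Below them came Nfkb2 at 8.96 ± 4.50 CPM per kb with AL/NP and 5.45 ± 1.64 in controls, Tnfrsf1b at 6.01 ± 0.801 and 5.64 ± 0.772, and Nfkbiz at 4.24 ± 0.849 and 2.80 ± 0.465. Nfkb1 stood at 2.34 ± 0.0731 CPM per kb with AL/NP and 1.78 ± 0.156 in controls, and Relb at 2.25 ± 0.154 and 1.29 ± 0.0361. The lowest were Tnfaip3 at 0.756 ± 0.0547 CPM per kb with AL/NP and 0.523 ± 0.145 in controls, and Tnf at 0.732 ± 0.358 and 0.341 ± 0.1499. In AL/NP livers, the neighbours Bcl3 and Tnfrsf1a, Tnfrsf1a and Nfkbia, Nfkb2 and Tnfrsf1b, Nfkb1 and Relb, and Tnfaip3 and Tnf had overlapping ranges of mean ± SD, whereas the other neighbours in the order did not.

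The signalling core, kinases, adaptors and ubiquitin enzymes that carry the signal from receptor to NF-kB, had fold changes on both sides of 0. Of 41 core genes, all tested, 23 were higher and 18 lower, with a median log2 fold change of 0.06, and edgeR called 0. At an unadjusted p under 0.05 there were 4 higher and 1 lower of the 41, where 9.37% of all tested genes were higher and 10.3% lower. DESeq2 called 1 higher and 1 lower, where it called 2.59% of genes higher and 2.48% lower. Chuk, which encodes the kinase IKK-alpha, measured 47.1, 57.4 and 60.6 CPM with AL/NP and 80.4, 83.4 and 93.7 CPM in controls. Its log2 fold change was -0.64 (SE 0.155, adjusted p = 0.124, edgeR). Map3k14, which encodes NIK, the kinase upstream of Chuk in the slower branch, measured 11.3, 10.7 and 11.1 CPM with AL/NP and 7.21, 7.51 and 7.18 CPM in controls. The groups did not overlap for either kinase, and they differed in direction. The log2 fold change of Map3k14 was 0.59 (SE 0.147, adjusted p = 0.128, edgeR), and these 2 kinases were the DESeq2 calls.

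Other members of the core gave smaller or more scattered values. Nfkbib, a further cytoplasmic IkB, was at a log2 fold change of 0.53 (SE 0.144, adjusted p = 0.144, edgeR), and Rela, the main activating subunit, at 0.39 (SE 0.139, adjusted p = 0.195), both without overlap. Rel, a subunit found mainly in blood cells, was at 0.70 with a wide error (SE 0.402, adjusted p = 0.350), from levels between 0.342 and 0.957 CPM. The kinase gene Ikbkb was at 0.17 (SE 0.156), the regulatory subunit gene Ikbkg at -0.35 (SE 0.170), the ubiquitin ligase gene Birc3 at 0.05 (SE 0.182), the A20-binding Tnip1 at 0.24 (SE 0.1497) and the deubiquitinase gene Cyld at -0.04 (SE 0.188). The smallest adjusted p of these 5 was that of Ikbkg, 0.288 (edgeR).

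Other ligands and receptors of the TNF superfamily lay on both sides of 0 too. Of 35 genes in that list, 12 were too low to test, and of the other 23, 14 were higher and 9 lower, with a median log2 fold change of 0.07. Neither direction held a call by edgeR. At an unadjusted p under 0.05, 3 were higher and 1 lower, where 9.37% of all tested genes were higher and 10.3% lower. DESeq2 called 1 lower, where it called 2.48% of genes lower. That gene was Eda2r, a receptor for an ectodysplasin isoform and a known target of p53, with 0.521, 1.10 and 0.464 CPM in AL/NP livers and 3.07, 1.63 and 1.24 CPM in controls (log2 fold change -1.50, SE 0.469, adjusted p = 0.166, edgeR). Tnfrsf13b, a receptor of B cells and some myeloid cells, was at 1.17 (SE 0.428, adjusted p = 0.201, edgeR). Dropping AL/NP replicate 2 took the median of this list to -0.09, and dropping AL/NP replicate 3 took it to 0.25.

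Most effector genes known as NF-kB targets were higher with AL/NP. Of 38 such genes, 30 could be tested, with 26 higher, 4 lower and a median log2 fold change of 0.79. EdgeR called 1, and DESeq2 8, all higher, where they called 0.0627% and 2.59% of genes higher. At an unadjusted p under 0.05, 11 were higher and 1 lower, where 9.37% of all tested genes were higher and 10.3% lower. The median was 0.48 without control replicate 2, and the edgeR call was lost whichever library was left out. The called gene was Saa3, an acute phase protein, which rose to 38.5, 95.7 and 43.1 CPM in AL/NP livers, against 7.07, 4.00 and 7.11 CPM in controls (log2 fold change 3.29, SE 0.402, adjusted p = 0.0493, edgeR). Lcn2, an iron-scavenging protein of hepatocytes and neutrophils, was at 1.63 (SE 0.276, adjusted p = 0.0783). Icam1, an adhesion molecule for leukocytes, measured 56.2, 49.98 and 54.8 CPM with AL/NP and 32.97, 29.6 and 31.5 CPM in controls (log2 fold change 0.78, SE 0.133, adjusted p = 0.0787, edgeR), and the cytokine gene Il1b was at 1.56 (SE 0.271, adjusted p = 0.0839). The list was assembled with earlier results of these libraries known, so its direction is no independent evidence.

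**Figure D3:**
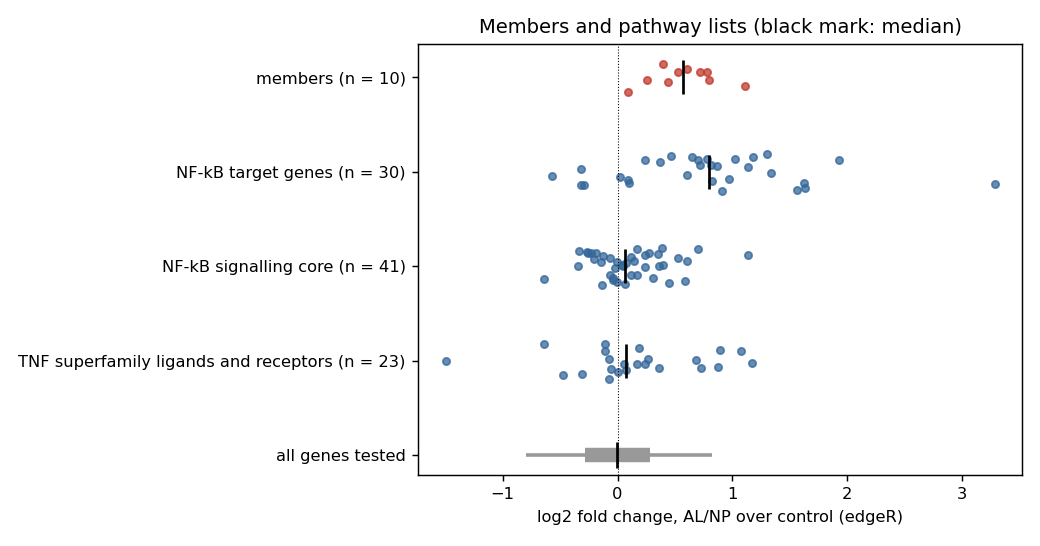
Log2 fold changes of AL/NP over control (horizontal axis) for single genes (points) of the 10 feedback genes and 3 pathway lists, with list medians as black marks; the grey bar gives the middle 50% and the grey line the middle 90% of all genes tested. The medians of the feedback genes, 0.57, and of the target genes, 0.79, lie to the right, while those of the signalling core, 0.06, and of the superfamily, 0.07, lie near 0.

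Many of these genes are strongly transcribed in leukocytes, so marker genes of cell types were set beside them. All 12 general macrophage markers were higher with AL/NP, and none was called by edgeR. At an unadjusted p under 0.05, 8 of them were higher, where 9.37% of all tested genes were. The groups did not overlap in 5 of the 12, where 14.5% of tested genes showed that separation upward. The leading markers were Mpeg1 (log2 fold change 1.20, SE 0.166, adjusted p = 0.0579, edgeR), Laptm5 and Ptprc. Adgre1, which encodes F4/80, was at 1.11 (SE 0.396, adjusted p = 0.197, edgeR), with overlap between the groups. The summed level of the 12 ran from 515 to 710.5 CPM with AL/NP and from 250.5 to 347 CPM in controls. All 8 markers of infiltrating monocytes were higher. Their sums, from 885 to 1069 CPM with AL/NP and from 513 to 802 CPM in controls, were nearly all Fn1, a matrix gene that hepatocytes also express, and the other 7 summed to 21.4 to 46.6 CPM with AL/NP and 10.9 to 18.3 CPM in controls. All 8 tested of 10 neutrophil markers were higher too, with sums from 36.04 to 76.5 CPM with AL/NP and from 19.4 to 34.9 CPM in controls. The markers Ly6c2 and S100a8 of these 2 lists were at log2 fold changes of 1.502 (SE 0.346) and 1.48 (SE 0.393), without overlap between the groups. Of the 8 tested neutrophil markers, 4 were without overlap, all higher, where 14.5% of tested genes showed that separation upward. Ly6g was too low to test, with 0, 3 and 8 counts in AL/NP replicates 1 to 3 and 0, 0 and 5 in control replicates 1 to 3. Kupffer markers were mixed, with 7 of 10 higher and sums from 121 to 200.1 CPM with AL/NP against 130.1 to 153 CPM in controls. The most abundant, Slc40a1, was at a log2 fold change of -0.45 (SE 0.286). Without it the sums ran from 88.8 to 129.9 CPM with AL/NP and from 59.6 to 89.6 CPM in controls, with a slight overlap. Single genes went both ways. Cd5l was at a log2 fold change of 1.264 (SE 0.185, adjusted p = 0.0640, edgeR), and Marco at 0.96 and Clec1b at 0.61 were also without overlap. Clec4f, which defines these cells, was at -0.20 (SE 0.344), and Cd163 was at -1.28 (SE 0.4096), the AL/NP libraries lying below all controls. None of the markers in these lists was at 0 in all libraries.

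Genes that respond to the handling of tissue were read as well. Of 12 immediate early and heat shock genes, 11 were higher. EdgeR called 2 of them, Hspa1a and Hspa1b, where it called 0.0627% of all tested genes higher. The gene that was lower was Egr1, at a log2 fold change of -0.98 (SE 0.321, adjusted p = 0.177, edgeR). The sums of the 12 ran from 441 to 674 CPM with AL/NP and from 336 to 399.9 CPM in controls. Without Hsph1, the most abundant of them, the sums overlapped, from 327 to 571 CPM with AL/NP and from 273 to 335 CPM in controls. The highest of these sums was that of AL/NP replicate 1, and the highest macrophage sum was that of AL/NP replicate 3. B cell markers, from cells in which the slower branch is prominent, had 2 of 6 higher, with sums from 4.90 to 6.08 CPM with AL/NP and from 4.74 to 7.98 CPM in controls. Hepatocyte markers had 2 of 8 higher and a median of -0.22. The part of any of these signals in the levels of the 10 genes was not tested.

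**Figure D4:**
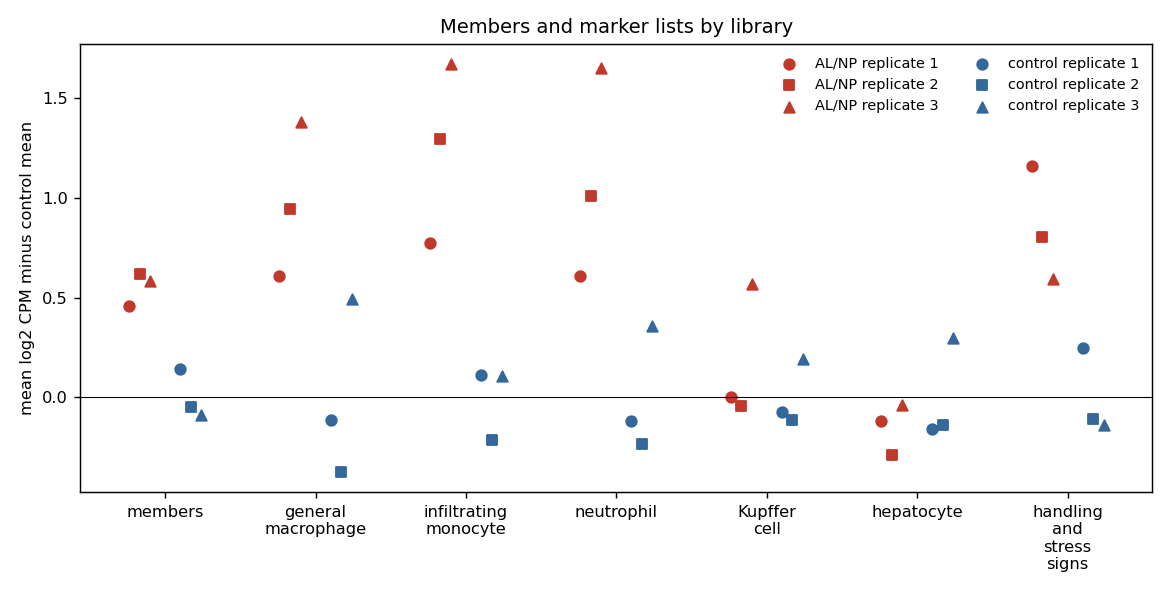
Mean log2 CPM minus the control mean (vertical axis) over the 10 genes and over 6 marker lists, for each AL/NP library (red) and control library (blue), with marker shape giving the replicate. The 10 genes lie at 0.46 to 0.62 in AL/NP livers and at -0.09 to 0.14 in controls; macrophage, monocyte and neutrophil markers are highest in AL/NP replicate 3, and handling genes in AL/NP replicate 1.

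Genes with the most similar profile were sought among tested genes with a mean of at least 1 CPM, by the root mean square difference of centred log2 CPM over the 6 libraries. Nearest to Tnf were Ccr2, the chemokine receptor of inflammatory monocytes, at 0.2996, followed by Cdh3, Apbb1ip, Oas3 and Mmp9 at 0.326 to 0.328. Of the other 9 feedback genes, Bcl3 came nearest to Tnf, at 0.441 and rank 56 of 13619 candidates, and Nfkb2 lay farthest, at 1.06. Nearest to Nfkbia were Oplah at 0.0585, Apon, Rrp9, Nos3 and Gm8355, the last at 0.0844. Nfkb1 was the nearest of the feedback genes to Nfkbia, at 0.179 and rank 281 of 13618 candidates. With 6 libraries shared by every profile, these distances are descriptions only.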

How the data were processed

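Total RNA from frozen liver pieces was selected for polyadenylated RNA, and strand-marked libraries were sequenced in paired ends, per the labels' protocols. The deposited table holds raw read counts per Ensembl gene, as its whole numbers show. GRCm38, STAR 2.6.1a, featureCounts and DESeq2 1.26.0 are named, per the submitters' processing notes, with no order of steps; the strand setting and annotation release are not given in the sources used here. Of 41388 identifiers, 40254 had a symbol in the reference table. Positions and exon lengths are from GENCODE's annotation of GRCm38.

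Counts were compared with edgeR 4.0.16 (R 4.3.3; TMM scaling, filterByExpr with a minimum count of 10, robust quasi-likelihood fit), adjusted by Benjamini-Hochberg over 15939 genes with a threshold of 0.05. SE is the absolute log2 fold change over the square root of F. No pair of libraries looked like a duplicate, with at least 30.6 chi-square units per degree of freedom. DESeq2 1.42.0 and limma 3.58.1 served as alternatives, with other scalings, filters, the replicate number as a block and each library left out. The edgeR fit was tested on simulated data. A floor of 3 counts covers counting error only. The members and lists were chosen with earlier results of these data known. By rule the text names the 10 members, leading genes by p-value of a list, and set core and marker genes; Traf2 and the leading markers of some lists are given only in counts. Medians and counts of lists are descriptions without a test.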

Additional observations from a re-analysis of the deposited data

How the results depend on the processing

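Over 15 alternatives (14 for Tnf, which the filter of at least 50 counts in 3 libraries removed), 143 of 149 fold changes of single members kept their direction and their side of the threshold, 4 passed it and 2 changed sign. The 4 were Bcl3 and Relb under DESeq2 (0.78 and 0.81 on the log2 scale) and without a filter beyond 1 count (0.78 and 0.80), where 2 members were called; the 2 were Tnfrsf1b, from -0.014 to 0.18 as libraries were left out. The members' median was 0.69 with library totals, where the median of all genes was 0.13 and the signalling core stood at 0.19, and 0.52 to 0.69 as libraries were left out. Members without overlap numbered 3 with library totals and 5 to 8 as libraries were left out.

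The count of genes called was 844 with DESeq2, 747 without a filter, 23 with the replicate block, and 0 with library totals, with at least 50 counts in 3 libraries and without robust estimation; it was 0 to 4 as libraries were left out, in fits with fewer samples. An unadjusted p under 0.05 was reached by 2254, 2786 and 3133 genes in the 3 fits with 0. Of the genes called without a filter 374 were higher and 373 lower, and with DESeq2 431 and 413, against 10 and 3 in the edgeR fit. Target genes called numbered 8 with DESeq2, 5 without a filter, and 0 with library totals, 50 counts, the block, no robust estimation or any library left out. The signalling core had 2 calls with DESeq2 and 1 without a filter, and the superfamily 1 with each; the superfamily's median ran from -0.089 to 0.25 as libraries were left out. The cause of these differences was not tested.

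The numbers of the replicates did not pair the libraries: deviations from the group means correlated at -0.0548, 0.0427 and 0.0752 for equal numbers, and not every library correlated best with its own number. With the replicate block, 0 members were called and their median was 0.58. With a library left out, the log2 count ratio ran from -0.15 to 0.49 for Nfkb2 over Nfkb1, from -0.081 to 0.15 for Nfkbia over Nfkb1, from -0.14 to 0.37 for Tnfaip3 over Nfkbia, and from -0.35 to -0.05 for Tnfrsf1b over Tnfrsf1a. Depth limits Tnf most, with 10 to 62 counts per library.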
